A study of Mus musculus with 22 samples.

Results

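Plasma-activated medium (PAM) and indirect cold atmospheric plasma (CAP) were compared in mouse duodenal organoids that received the treated medium at day 2 of culture. The comparison holds 6 of the 22 RNA-seq samples of the series, 3 given PAM and 3 given indirect CAP, and each treatment was applied to the same 3 organoid lines, called 2, CD1 and WT2. Organoids are clusters of epithelium grown from intestinal stem cells. All lines were wild type, from adult mice of 2 months of the outbred CD1 strain, and each line came from 1 mouse, so the line was the biological replicate. Per the labels, organoid passage was 4 for line 2, 12 for line CD1 and 14 for line WT2. The study lists male lines at passages 12 and 14 and female lines at passage 2 for this experiment. Line 2, with no Kdm5d reads (below), is taken as female, so the sources differ on its passage. Sex therefore differed between line 2 and the other lines. All cultures shared a medium with EGF, Noggin, R-spondin 1 and N-acetyl cysteine, and an antioxidant was therefore present in both groups.

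CAP is a partly ionised gas, produced here from helium by an endoscopic plasma jet, that brings reactive oxygen and nitrogen species into the liquid below it. Per the study's methods the plume did not touch the medium. For indirect CAP, the plasma was applied at day 1 to wells that held other organoids, and for PAM it was applied to medium alone. Both media, made at day 1, were given at day 2 to organoids that had met no plasma, which were collected 24 hours later, at day 3. How the media were kept in between, and for how long the indirect CAP medium stayed on the plasma-treated organoids before transfer, is not given in the sources used here. The comparison asks what differs when cells had, or had not, been present as the plasma was applied. Beside it stand the 6 samples that received PAM or indirect CAP at day 1, collected at the same endpoint after a change to fresh medium, and 4 untreated samples. The labels name the day 2 groups by 24 hours and the day 1 groups by 30 minutes, whereas the study's methods describe exposures of 24 hours to these media on both days. The exposure time of the day 1 groups therefore differs between the sources, and the days used here are those of the study.

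The intestinal epithelium renews from Lgr5-positive stem cells at the crypt base, which depend on Wnt signalling. Their daughters divide rapidly and then become absorptive enterocytes or, under Atoh1, secretory goblet, Paneth and enteroendocrine cells. Entry into S phase is driven by E2F transcription factors, which switch on the genes for DNA replication.

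Values are the authors' read counts scaled to 20000000 reads per sample, without correction for gene length, and are called normalised counts here. About 20000000 to 23600000 reads stood behind each of the 6 samples, estimated from the spacing of the low values, and 26206 to 27082 genes had a value above 0. Fibroblast and smooth muscle markers summed to 115 to 161 normalised counts and leukocyte and endothelial markers to 365 to 449, against 215140 to 285143 for the epithelial markers. Col3a1, Dcn and Lum of the first list and Ptprc, Kdr and Cdh5 of the second stood at 0 to 3, and Csf1r made up most of the second sum at 278 to 334. Kdm5d, a gene on the Y chromosome, read 695 and 648 in line CD1, 183 and 186 in line WT2 and 0 in line 2 for indirect CAP and PAM, so the 2 treatments matched within each line. In the untreated samples the order of CD1 and WT2 was the opposite, at 137 and 546, so the untreated samples are given below only as a range over 4 and enter no test. The PAM sample of line 2 stood apart, at 106.8 on the first principal component of the 18 treated samples, where the others lay between -73.3 and 46.2. List counts without it are given where they changed by over 1.5 times.

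Organoids given PAM at day 2 had lower levels of DNA replication, mitotic, stem cell and Wnt target genes and of several goblet cell genes than those given indirect CAP of the same line, and higher levels of a few enterocyte genes. Of 17755 genes tested, 72 were lower with PAM and 2 were higher at the study's threshold, an adjusted p under 0.01 with a change of at least 2-fold. These are 0.406% and 0.0113% of the genes tested. At an adjusted p under 0.05 with no minimum change, 1524 genes (8.58%) were lower and 134 (0.755%) were higher. Below, genes are said to have fallen or risen when they passed this second threshold, and "strict" marks the first. The PAM samples lay below all 3 indirect samples for 2420 genes (13.6%) and above all 3 for 404 (2.28%). Over all genes tested, 11742 of 17755 had a negative log2 fold change and 6008 a positive one. PAM was lower in every line for 34.0% of genes and higher in every line for 11.5%. The sign counts of the lists below stand against these shares. The median log2 fold change over all genes was -0.11, and scaling by the median of ratios moved it to 0.00. Under that scaling 631 of the 17755 genes were lower and 275 higher at the second threshold. Of those past it, 69.6% were lower, against 91.9% before. The strict calls lay close to their limit, 42 of the 74 at an adjusted p of 0.00824, and they drew on the spread over all 18 treated samples. When only the 6 samples were fitted with limma, 0 genes passed either threshold and 3644 had an unadjusted p under 0.05. Fitting the 18 treated samples without the organoid line also gave 0 at both thresholds. With line WT2 left out, 0 genes passed either threshold. With line 2 left out, 0 were strict and 1 was lower at the second threshold. Leaving out line CD1, which changed least, gave 159 strict genes, and 1059 lower and 78 higher at the second threshold. The counts at the second threshold also moved with single samples. Without the PAM sample of line 2, 433 genes were lower and 82 higher, and without that of line WT2 these were 3 and 1. Without that of line CD1 they were 2345 and 348. Leaving out the indirect sample of line 2 gave 1 and 2, that of line CD1 950 and 44, and that of line WT2 730 and 52. Without the PAM sample of line WT2 or the indirect sample of line 2, no member of the lists below passed other than AP-1 genes. The same held without line 2, and without line WT2 no member passed.

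**Figure D1:**
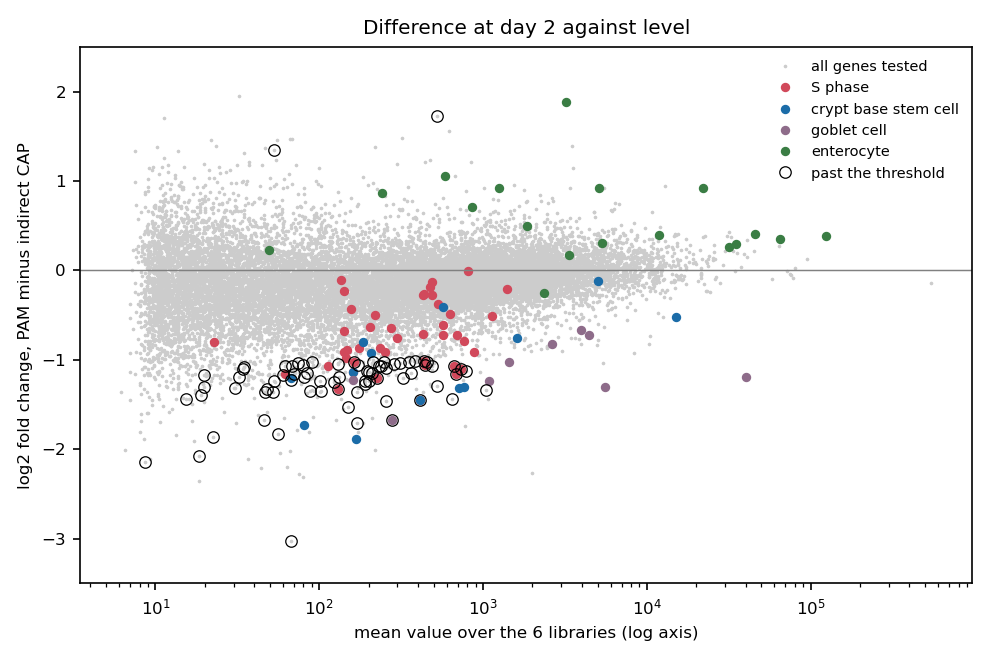
Log2 fold change between PAM and indirect CAP at day 2 (vertical) against the mean normalised count over the 6 samples (horizontal, log axis). Each grey point is 1 of 17755 genes, coloured points are members of 4 gene lists and open circles are the 74 genes past the strict threshold, 72 of which lie below 0.

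The S phase list held more strict falls than any other list. Of 43 measured members, 43 had a negative log2 fold change, 34 fell and 9 were strict, and their median was -0.76 against -0.11 for all genes. The PAM and indirect samples did not overlap for 26 of them. The medians were -1.07 in line 2, -0.31 in line CD1 and -0.87 in line WT2. Median-of-ratios scaling left 27 falls and a median of -0.65. Without the PAM sample of line 2, 19 members fell, and without line 2 or line WT2 none did. That list shares Cdca7 and Ung with the stem cell list.

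The promoters of 3 strict S phase genes are shown because they hold the letters of an E2F site. The 4 motifs searched on both strands were TTTCCCGC, TTTCGCGC, TTTGCCGC and TTTGGCGC, in the 250 bases before the transcription start of the first RefSeq entry of each gene (GRCm38.p6). The last 160 bases before the start are printed 5′ to 3′ on the gene's strand, with the matches in capitals.
Cdca7, chr2:72476059-72476218 (plus strand): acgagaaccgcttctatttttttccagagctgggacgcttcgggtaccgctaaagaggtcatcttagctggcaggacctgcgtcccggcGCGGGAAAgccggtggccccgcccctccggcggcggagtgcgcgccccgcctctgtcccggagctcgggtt
Dtl, chr1:191575545-191575704 (minus strand): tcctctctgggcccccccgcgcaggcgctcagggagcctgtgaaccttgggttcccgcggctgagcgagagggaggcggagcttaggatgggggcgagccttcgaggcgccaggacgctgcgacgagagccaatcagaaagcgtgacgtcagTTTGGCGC
Mcm5, chr8:75109349-75109508 (plus strand): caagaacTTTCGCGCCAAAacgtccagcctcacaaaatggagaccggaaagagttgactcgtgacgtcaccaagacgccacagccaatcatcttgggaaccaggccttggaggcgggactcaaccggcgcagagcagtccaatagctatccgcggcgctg
In Mcm5 the capitals mark 2 overlapping matches, 1 on each strand. A promoter was at hand for 7 of the 9 strict S phase genes, and 3 of these held a match, while those of Blm, Mcm2, Rrm2 and Uhrf1 did not. A match stood in 8 of 31 promoters of the S phase list (25.8%), in 7 of 48 of the strict lower genes (14.6%), in 352 of 10872 of the genes tested (3.24%) and in 517 of all 27025 promoters (1.91%). A match describes the letters of a window and not a bound factor.

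Mcm5, a subunit of the MCM helicase that unwinds DNA at replication forks, read 847, 1085 and 843 normalised counts with indirect CAP in lines 2, CD1 and WT2, and 281, 712 and 345 with PAM. Every PAM sample lay below every indirect sample, and line CD1 changed least. The log2 fold change was -1.16 ± 0.18, with an adjusted p of 0.00824. Here and below, ± gives the limma SE, which draws on the spread over all 18 treated samples. It is not the SE of the 3 line differences. Mcm2, of the same helicase, read 938, 993 and 1021 against 352, 735 and 369, a log2 fold change of -1.10 ± 0.17. Mcm4 went from 542, 680 and 536 to 214, 475 and 215. All of these ranges were apart, and untreated organoids had higher levels still, 2651 to 3295 for Mcm5 and 2147 to 2932 for Mcm2.

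Exo1, an exonuclease of mismatch repair and replication, had the largest fall of the list after Cdca7, which is given with the stem cell genes. It read 190, 184 and 170 with indirect CAP and 45, 120 and 68 with PAM, a log2 fold change of -1.33 ± 0.21 (adjusted p = 0.00824). Indirect levels were nearly equal across lines, and the PAM levels were not. Dtl, which targets replication proteins for degradation in S phase, went from 279, 341 and 294 to 77, 244 and 120. Uhrf1, which carries DNA methylation through replication, went from 771, 938 and 948 to 298, 689 and 365. Both were strict, at -1.20 ± 0.22 and -1.06 ± 0.17. Pcna, the sliding clamp of the replication fork, had a log2 fold change of -0.21 (adjusted p = 0.48) and Gins2 of -0.01 (adjusted p = 0.96), so the list did not move as one.

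The 10 largest strict falls among genes with a mean of at least 100 were Cdca7l, Spdef, AU020206, Slfn9, Cdca7, Hist1h1a, Brca2, Gm44346, Hist1h1b and Exo1, of which Cdca7 and Exo1 belong to the S phase list and Spdef to the goblet list. Cdca7l, a relative of the Myc target Cdca7, read 255, 260 and 238 with indirect CAP and 40, 160 and 68 with PAM (-1.71 ± 0.27). Linker histone genes Hist1h1a and Hist1h1b changed by -1.43 ± 0.25 and -1.33 ± 0.22. Brca2, needed for repair by homologous recombination, went from 244, 252 and 228 to 61, 155 and 85 (-1.36 ± 0.20). The Schlafen family member Slfn9 changed by -1.46 ± 0.24, the uncharacterised transcript AU020206 by -1.53 ± 0.25 and the predicted gene Gm44346 by -1.34 ± 0.26. Mybl2, a transcription factor of dividing cells, was named after its values were seen because its lines were close to each other. It read 467, 643 and 384 with indirect CAP and 202, 346 and 151 with PAM, with differences of -1.21, -0.89 and -1.34 by line and an adjusted p of 0.00811.

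Of 53 genes of G2 and mitosis that were measured, 52 were negative and 42 fell, but 0 were strict, and their median was -0.68. The samples did not overlap for 18 of them, and 24 fell under median-of-ratios scaling. Cenpf, a kinetochore protein, read 607, 853 and 639 with indirect CAP and 246, 638 and 288 with PAM (-0.95 ± 0.17, adjusted p = 0.00824). Here the PAM sample of line CD1 lay within the range of the indirect samples. The lamin B receptor gene Lbr changed by -0.63 ± 0.11. Mki67, the antigen used to stain cycling cells, changed by -0.87 (adjusted p = 0.009) and the topoisomerase gene Top2a by -0.88 (adjusted p = 0.0086). In this list 10 fell without the PAM sample of line 2, and 0 without line 2 or line WT2. Ribosome biogenesis genes were negative in 19 of 19, 10 of which fell, with a median of -0.43 and with 17 whose samples were apart. Dkc1, of the small nucleolar RNA machinery, changed by -0.70 ± 0.13, and the nucleolar protein gene Nolc1 by -0.63 ± 0.12. Median-of-ratios scaling left 3 falls in this list, and so did leaving out the PAM sample of line 2. Leaving out line 2 or line WT2 left 0.

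**Figure D2:**
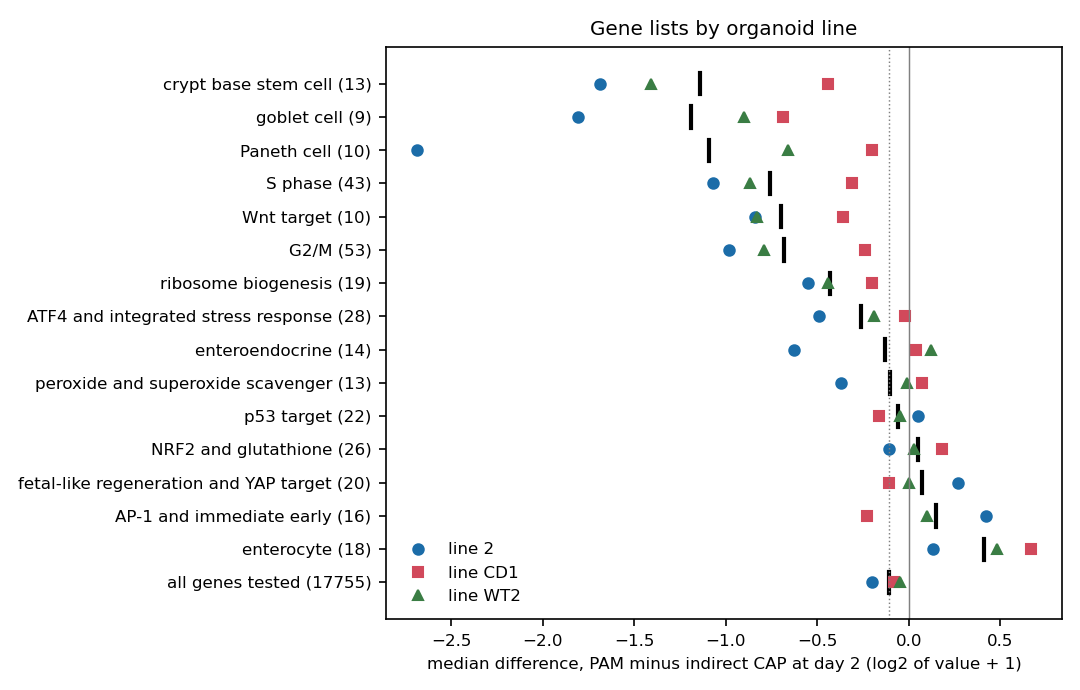
Median difference between PAM and indirect CAP at day 2 (log2 of the normalised count plus 1) for 15 gene lists and for all genes, with the number of genes measured in parentheses. Symbols give each organoid line, the black bar the fitted median and the dotted line the median of all genes. Line CD1 lies closest to 0 for the stem cell, goblet, Paneth, S phase, Wnt and G2/M lists.

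Stem cell genes fell with PAM as well, 8 of the 13 measured. All 13 measured members were negative, 12 of them in every line. Of these 1 was strict, with a median of -1.14, and 6 fell under median-of-ratios scaling. Without the PAM sample of line 2, 3 fell, and 0 without line 2 or without line WT2. In these bulk samples, fewer stem cells and less RNA per stem cell cannot be told apart. Lgr5, the R-spondin receptor that marks crypt base stem cells, read 36, 131 and 188 with indirect CAP and 8, 96 and 28 with PAM in lines 2, CD1 and WT2. Untreated organoids read 1281 to 2822. The ranges of the treated groups overlapped, because line 2 was low with both media, and the differences by line were -2.04, -0.44 and -2.70. The log2 fold change was -1.73 ± 0.50 (adjusted p = 0.0444). The call was lost under median-of-ratios scaling (adjusted p = 0.0706) and quantile normalization (adjusted p = 0.0918), and among the fits with a sample or line left out Lgr5 passed only without line CD1 or its PAM sample.

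Olfm4, a secreted stem cell marker, read 899, 1255 and 956 with indirect CAP and 432, 866 and 190 with PAM, against 20867 to 25431 in untreated organoids. It was lower in 3 of 3 lines but did not pass (-1.31 ± 0.56, adjusted p = 0.156). Smoc2, a matrix protein of the crypt base, went from 807, 1039 and 1081 to 189, 805 and 381 (-1.32 ± 0.33, adjusted p = 0.0238). Its PAM samples all lay below the indirect ones. Cdca7, the strict member, read 529, 591 and 624 with indirect CAP and 110, 416 and 207 with PAM (-1.45 ± 0.26, adjusted p = 0.00859). Adra2a, an adrenergic receptor gene, and Ung, the uracil-DNA glycosylase, fell by 0.80 and 1.14 on the log2 scale. Ascl2, the transcription factor of stem cell identity, fell by 1.88 (adjusted p = 0.014).

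Of 10 measured Wnt targets 10 were negative in every line and 9 fell, with a median of -0.70. The list held 6 falls when the PAM sample of line 2 was left out, and 0 without line 2 or line WT2. Axin2, a feedback inhibitor of the pathway, read 752, 1291 and 1317 with indirect CAP and 107, 822 and 389 with PAM, against 4158 to 5951 untreated. The PAM sample of line CD1 stood above the indirect sample of line 2, so the groups overlapped. The change was -1.74 ± 0.37 (adjusted p = 0.0142). Myc, a driver of growth and ribosome production, went from 2492, 2960 and 3034 to 1143, 2375 and 1620 (-0.78 ± 0.13, adjusted p = 0.00824). Its indirect values lay within the untreated range of 2344 to 3228, whereas each PAM value but 1 lay below it. Ephb2, a receptor that positions cells along the crypt, changed by -0.51 ± 0.10.

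Goblet cell genes were negative in 9 of 9 in every line, with a median of -1.19, 4 falls and 1 strict. The median was -0.47 with 1 fall without the PAM sample of line 2, and without line 2 or line WT2 0 fell. Spdef, the transcription factor of goblet cell maturation, read 167, 490 and 598 with indirect CAP and 47, 186 and 170 with PAM in lines 2, CD1 and WT2. The differences by line were alike, at -1.81, -1.39 and -1.81 on the log2 scale, although the groups overlapped because line 2 was low in both. The log2 fold change was -1.67 ± 0.28 (adjusted p = 0.00824), and the untreated range was 431 to 690. Muc2, the main mucin of intestinal mucus, changed by -1.30 (adjusted p = 0.045), Fcgbp, a mucus protein, by -1.19 (adjusted p = 0.047) and Atoh1 by -1.23 (adjusted p = 0.041). Only 1 of the 9 fell under median-of-ratios scaling.

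The Paneth cell list was negative in 10 of 10 with a median of -1.09, but only Habp2 fell (-0.91 ± 0.20, adjusted p = 0.0156). The median was -0.45 and 0 fell without the PAM sample of line 2. The list's medians were -2.69 in line 2, -0.20 in line CD1 and -0.66 in line WT2. Pla2g2a, a secreted phospholipase, read 69, 76 and 95 with indirect CAP and 2, 69 and 34 with PAM (adjusted p = 0.0812), so line 2 carried most of its difference. Of 14 enteroendocrine genes 0 fell and 0 rose by limma, 1 was lower in all 3 lines and their median was -0.13. Neurog3, the factor that commits cells to this fate, changed by -1.37 ± 0.44 (adjusted p = 0.0675), with -3.09 in line 2 and -0.32 in line WT2. Of the 11 tuft cell genes only 4 were measured, and 0 of these passed.

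Most enterocyte genes had positive differences. Of 18 measured, 17 had a positive log2 fold change, 10 of them in every line, and 3 rose, with a median of 0.41. None was strict. Anpep, the brush border aminopeptidase N, read 1577, 368 and 2097 with indirect CAP and 8388, 1293 and 5635 with PAM in lines 2, CD1 and WT2. It was higher in 3 of 3 lines, by 2.41, 1.81 and 1.43, and line CD1 was low with both media. The log2 fold change was 1.88 ± 0.44 (adjusted p = 0.0181), and untreated organoids read 4159 to 7446. Slc15a1, the intestinal peptide transporter, went from 578, 134 and 523 to 647, 489 and 1151 (1.05 ± 0.24, adjusted p = 0.0169), with little difference in line 2. Apoa4, a lipoprotein of fat absorption, went from 14111, 8433 and 23114 to 21109, 19587 and 45790 (0.93 ± 0.25, adjusted p = 0.0317). Apoa1, Sis and Fabp2 had log2 fold changes of 0.93, 0.26 and 0.17 and did not pass. Without the PAM sample of line 2, 6 of the list rose, and without line 2 or line WT2 0 did.

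The 2 strict rises were Lipn and Cyp2c70. Lipn, of the acid lipase family, read 330, 240 and 160 with indirect CAP and 1156, 667 and 608 with PAM, and all PAM samples lay above all indirect samples. The log2 fold change was 1.73 ± 0.19 (adjusted p = 0.00211), with 1.81, 1.47 and 1.92 by line, and the untreated range was 62 to 207. Cyp2c70, which makes muricholic bile acids in mouse liver, had too low a mean for the naming rule and was named after its values were seen. It read 38, 24 and 27 with indirect CAP and 69, 70 and 90 with PAM (1.35 ± 0.22), still under the untreated range of 284 to 392.

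**Figure D3:**
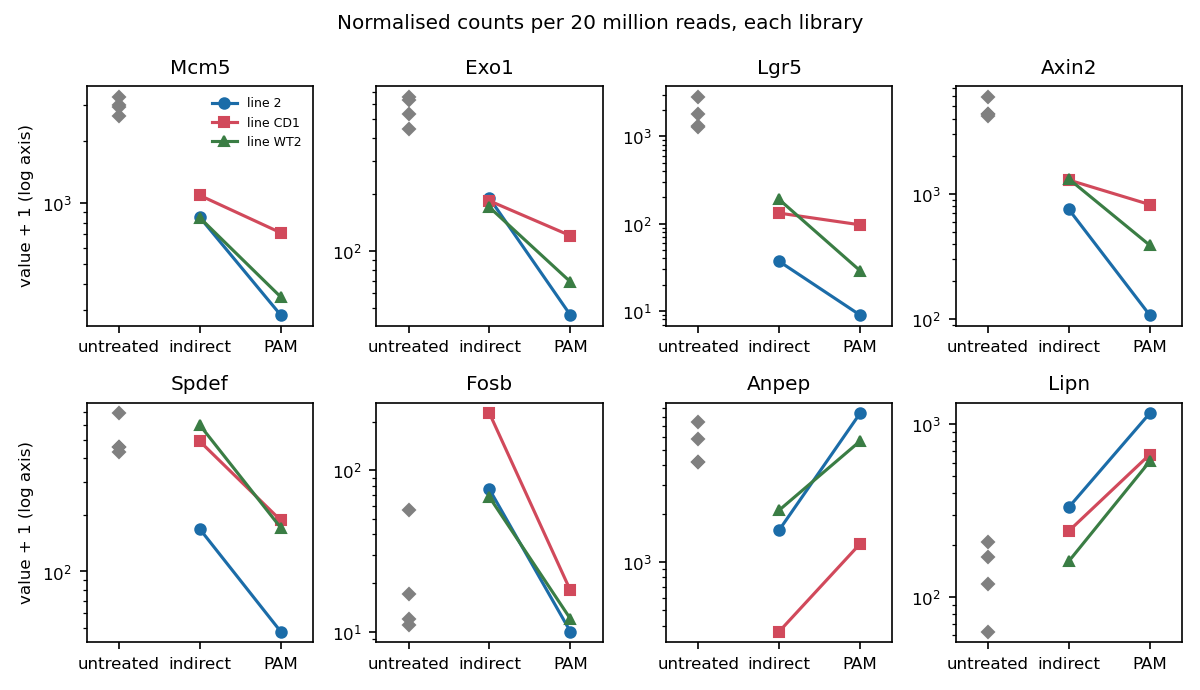
Normalised count plus 1 (log axis, scale set for each gene) of 8 genes in 4 untreated samples (grey) and in the indirect CAP and PAM samples of day 2, joined within each organoid line. Lines fall from indirect CAP to PAM for Mcm5, Exo1, Lgr5, Axin2, Spdef and Fosb and rise for Anpep and Lipn.

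Fosb, an AP-1 transcription factor that cells induce early after a stimulus, had the largest strict difference. It read 75, 224 and 67 normalised counts with indirect CAP against 9, 17 and 11 with PAM. The latter lay at or near the untreated range of 10 to 56, while the indirect samples lay above it. The log2 fold change was -3.02 ± 0.34 (adjusted p = 0.00211), or 12.3% of the indirect level, with -2.93, -3.64 and -2.50 by line. It stayed strict under both other scalings. The rest of the list did not follow. Among 16 measured AP-1 and immediate early genes 2 fell, 0 rose and the median was 0.15. Egr1, a zinc finger factor of the same early response, was the other fall, from 745, 1043 and 1150 to 311, 621 and 848 (-0.81 ± 0.19, adjusted p = 0.0181). Fos itself read 1608, 1706 and 1505 against 1378, 1048 and 1538, far above the untreated range of 157 to 327 in both groups, and did not pass (adjusted p = 0.398).

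Among 17 genes of the EGF family and MAP kinase feedback 3 fell, Egf (-1.01, adjusted p = 0.023) and the ERK-induced ETS factors Etv4 (-0.58 ± 0.11) and Etv5 (-1.01 ± 0.23). The list's median was 0.05, and the Sprouty and Dusp feedback genes did not pass. Of the 17, 8 were negative and 9 positive, up to 1.12, and 3 were lower and 6 higher in every line. The list thus had no common direction.

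Oxidant defence genes differed little between the media. Of 26 genes of the NRF2 and glutathione response 0 fell and 1 rose, with a median of 0.05 and a range of -0.52 to 0.56. Osgin1, an oxidative stress growth inhibitor, was the 1 that rose, from 743, 735 and 1105 to 974, 1112 and 1783 (0.56 ± 0.16, adjusted p = 0.0438). Hmox1, which degrades haem, read 703, 501 and 477 against 1198, 492 and 512, with a difference in line 2 alone (0.28 ± 0.16, adjusted p = 0.308). Gsta1, a glutathione transferase gene, changed by 0.39 ± 0.15 (adjusted p = 0.122). Among 13 peroxide and superoxide scavengers limma found 0 falls and 0 rises, within a range of -0.47 to 0.35. Sod2 and Prdx3, which clear superoxide and peroxide in mitochondria, changed by -0.33 ± 0.11 and -0.37 ± 0.15. These tests do not show that the media acted alike on these genes.

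Of 28 genes of the ATF4 and integrated stress response 6 fell and 0 rose, with a median of -0.26. The 6 were Stc2, Slc7a5, Shmt2, Phgdh, Wars and Sesn2, among them genes of amino acid uptake, serine and one-carbon metabolism and tRNA charging. Stc2, the stanniocalcin gene, went from 1017, 1598 and 1155 to 362, 1288 and 640 (-0.88 ± 0.18, adjusted p = 0.0116). Slc7a5 changed by -0.70 ± 0.18 and Shmt2 by -0.64 ± 0.13. Other members did not pass in either direction. Atf3 read 675, 566 and 1284 against 1248, 687 and 2126, higher in 3 of 3 lines without passing (0.63 ± 0.23, adjusted p = 0.0942). Slc7a11, the cystine transporter, changed by 0.41 ± 0.22, and Chac1, which breaks down glutathione, by -0.33 ± 0.14, and neither passed. Nupr1, a stress-induced chromatin protein, read 6027, 4548 and 5091 against 16803, 3562 and 5165, so its difference lay in line 2. Under median-of-ratios scaling 2 of the list fell. Leaving out the PAM sample of line 2 gave 1 fall and a median of -0.10, and without line 2 or line WT2 0 fell.

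The fetal-like regeneration genes, which mark repair after injury, had a median of 0.07 over 20 measured members. Ptgs2, which makes prostaglandins, was the 1 that rose, from 233, 449 and 111 to 2139, 475 and 298 (1.56 ± 0.44, adjusted p = 0.0381), with 3.19 in line 2 and 0.08 in line CD1. Clu, a marker of revival stem cells, read 9374, 8934 and 2903 against 9065, 6534 and 1753 and did not pass. Areg, an EGF receptor ligand of repair, read 11214, 4639 and 9171 against 10168, 5933 and 10843, over 198 to 882 untreated.

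Among 22 p53 targets 1 fell and 0 rose, with a median of -0.06, where 8.58% of all genes fell and 0.755% rose. That was Bbc3, a cell death activator (-0.39 ± 0.10), and Pmaip1, which acts in the same death pathway, had a log2 fold change of 0.49 ± 0.15 without passing. In the BCL2 family and caspase list the survival gene Bcl2 fell, from 163, 155 and 183 to 40, 132 and 82 (-1.13 ± 0.25, adjusted p = 0.0162). The interferon-stimulated list held 2 falls among 24, Ifitm2 (-0.92 ± 0.17) and Ifitm3 (-1.81 ± 0.45), which restrict virus entry. That is close to the 8.58% of all genes that fell. The list's median was -0.08, with 14 members negative and 10 positive. Ifitm3 read 86, 120 and 182 with indirect CAP and 12, 74 and 45 with PAM, against 675 to 820 untreated. Of the aquaporins, Aqp3, which also passes glycerol and peroxide, rose from 110, 102 and 269 to 200, 234 and 429 (0.91 ± 0.20). Aqp4, a water channel, fell in 2 of 3 lines, from 91, 86 and 301 to 24, 89 and 86 (-1.21 ± 0.35, adjusted p = 0.0436). The glucose transporter gene Slc2a1 rose by 0.46 ± 0.13.

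Other lists held at most 1 gene that passed. The chaperonin gene Hspd1 fell (-0.55 ± 0.14) among 12 heat shock genes, 1 of 10 autophagy and lysosome genes fell, and Cdx2, the intestinal identity factor, fell (-0.59) as 1 of 15 epithelial markers. Limma called 0 of 19 endoplasmic reticulum chaperones, 20 cholesterol synthesis genes, 15 keratin and hemidesmosome genes, 6 metallothionein and zinc genes, 10 iron handling genes, 16 chemokine and antimicrobial genes and 7 mitochondrially encoded genes. It also called 0 of the 3 fibroblast and smooth muscle markers and 4 leukocyte and endothelial markers measured. Medians of these lists lay between -0.16 and 0.19. Leaving out the PAM sample of line 2 left 1 fall in the AP-1 list, 1 in the interferon list and 2 in the EGF list, and 3 rises in the NRF2 list. It left 0 falls in the p53, BCL2, heat shock, aquaporin and autophagy lists by limma, and 0 rises in the fetal-like regeneration list and in the glycolysis list that holds Slc2a1. Of the 38 listed genes that the study itself shows, 11 fell and 1 rose, where 8.58% and 0.755% of all genes did. The study shows these genes from this same series, so they are not an independent set.

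A further 4 strict falls of signalling genes, named after their values were seen, add detail. Jag2, a Notch ligand, read 616, 817 and 679 with indirect CAP and 133, 569 and 308 with PAM (-1.29 ± 0.23). Lfng, which modifies Notch receptors, went from 44, 55 and 99 to 10, 33 and 39. Bambi, a decoy receptor of the TGF-beta family, went from 45, 89 and 119 to 7, 29 and 45. Tnfsf10, the death ligand TRAIL, was close to 0 in both groups, at 11, 12 and 19 against 1, 1 and 8, under 220 to 561 untreated.

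The same comparison at day 1 used other PAM and indirect samples and asks whether the difference was the same on the 2 days. Both days came from 1 fit, with shared line effects, a shared spread and genes chosen on the day 2 samples. Genes passing on both days are therefore not independent repeats. The day 1 media were freshly made and later replaced by fresh medium, so day of giving, medium age and recovery cannot be told apart. At day 1, 1964 genes (11.1%) were lower with PAM and 704 (3.97%) were higher at an adjusted p under 0.05. Of the genes that fell at day 2, 630 also fell at day 1, 41.3% of the day 2 list and 32.1% of the day 1 list. For rises the shared number was 49, 36.6% and 6.96%, and 1 gene passed in opposite directions. Of the 72 strict falls, 71 were negative at day 1, where 67.5% of all genes were negative, and 38 fell there. Across genes, the log2 fold changes of the days had r = 0.43, a description over 17755 genes that are not independent replicates and that share lines and a common scaling. The difference between the days was past the strict threshold for 0 genes by limma, with 2 at an adjusted p under 0.05 and 1873 at an unadjusted p under 0.05. This count moved with the samples fitted. Without line 2, 29 genes were strict, and 175 were negative and 47 positive at an adjusted p under 0.05. Without the PAM sample of line CD1 at day 2 the latter were 50 and 6.

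Fosb repeated its difference at day 1, where it read 160, 811 and 248 with indirect CAP and 7, 47 and 25 with PAM (-3.89 ± 0.34, adjusted p = 7.2e-05). Egr1 changed by -0.85 ± 0.19 at day 1. The stem cell list had a median of -1.0 at day 1 with 10 falls and 1 rise, and S phase a median of -0.44 with 14 falls. The median of the goblet list changed sign, from 0.24 at day 1 to -1.19 at day 2, and 0 of its genes passed at day 1. Spdef kept its sign, at -0.44 ± 0.28 at day 1. Conversely the fetal-like regeneration list had a median of 0.80 and 9 rises at day 1. None of these list members passed the test of the difference between days at an adjusted p under 0.05.

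**Figure D4:**
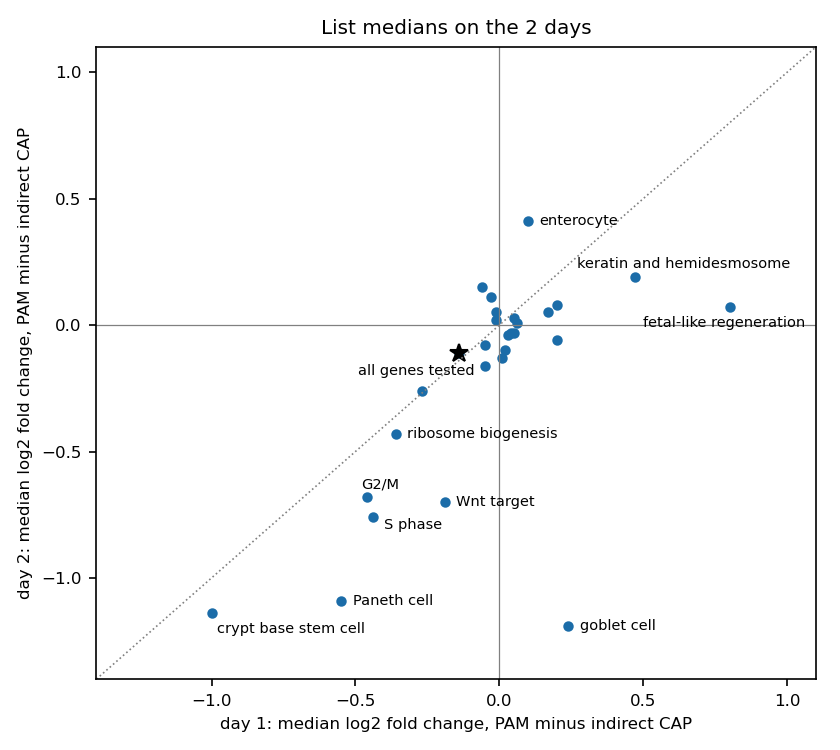
Median log2 fold change between PAM and indirect CAP for each list with at least 9 measured genes, at day 1 (horizontal) and day 2 (vertical). The star is the median of all genes and the dotted line marks equal values. Goblet genes lie at 0.24 and -1.19 and the fetal-like regeneration list at 0.80 and 0.07.

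The 2 genes that passed the test between days at an adjusted p under 0.05 were named after their values were seen. At that threshold 0 genes passed it after quantile normalization. Fitting without the organoid line, or only the samples compared, also gave 0, as did leaving out line CD1 or line WT2. Per2, a repressor of the circadian clock, read 471, 557 and 473 with indirect CAP and 526, 669 and 713 with PAM at day 2. At day 1 it read 659, 874 and 866 against 387, 489 and 469, the opposite order in 3 of 3 lines. The difference between days was 1.17 ± 0.16 on the log2 scale (adjusted p = 0.0263). Slc14a1, a urea transporter gene, read 15, 160 and 123 against 0, 3 and 6 at day 1 and 1, 19 and 28 against 0, 10 and 8 at day 2. It was lower with PAM on both days, by less at day 2 (difference 3.31 ± 0.42, adjusted p = 0.0216), from values near 0.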

How the data were processed

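Total RNA of mouse duodenal organoids was sequenced as read pairs (Ovation SoLo library kit, NovaSeq). Per the labels and the study's methods, the authors trimmed reads with Trimmomatic 0.36, aligned them to GRCm38 with STAR 2.5.3a and counted them per gene with HTSeq 0.9.1 on Ensembl annotation. The deposited values carry the unit score here: the authors scaled each sample's counts to a total of 20000000, and the values are rounded up to whole numbers (sums 20007540 to 20016513), so they are not raw counts and no count test was run. All 22 columns were mapped, with 0 left over.

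The log2 of each value plus 1 was modelled with limma 3.58.1 (R 4.3.3), trended empirical Bayes, on 18 treated samples with the organoid line as a block, for genes at 10 or more in at least 3 of the 6 samples. Fold changes are on that scale, which understates low genes. P-values were adjusted by Benjamini-Hochberg over all 17755 genes. Same-line deviations correlated at 0.63, 0.49 and 0.73 between the groups (lines 2, CD1 and WT2), so the lines pair the samples, which come from the same mouse. No samples were near-identical. Groups come from the labels.

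The members, the 33 gene lists and the tests were chosen with earlier results of these data known. The naming rule took the 10 largest strict changes each way with a mean of at least 100 and all lines agreeing in sign, the members of each list with the smallest p, and the listed genes the study shows, 112 genes in all, of which the text gives values for 62. A further 9 were chosen after their values were seen, as were single list members given with a log2 fold change only. Symbols came from the deposited table, with 3 older names replaced through RefSeq. Tests were checked on simulated data, where each planted change was the same in every line. That check does not cover differences that vary between lines, as many here did. Alternatives covered scaling, pseudocount, filter, block, the samples fitted and each sample or line left out.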

Additional observations from a re-analysis of the deposited data

Results flagged for a closer look

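Per2 and Slc14a1 differed between days in the size of the PAM minus indirect CAP difference, by 1.17 and 3.31 on the log2 scale (limma, adjusted p = 0.0263 and 0.0216). After quantile normalization 0 genes passed that test at an adjusted p under 0.05. Per2 was higher with PAM in 3 of 3 lines at day 2, with a log2 fold change of 0.34, and lower in 3 of 3 at day 1. Clu was lower with PAM in 3 of 3 lines at day 2 (-0.41) and higher in 3 of 3 at day 1, but that difference missed the test (adjusted p = 0.485). Muc2 was also lower with PAM in 3 of 3 lines at day 2 (-1.30) and higher in 3 of 3 at day 1, without passing that test (adjusted p = 0.325).

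For 11 of the genes named, 1 of the 4 untreated samples stood apart from the other 3 by Dixon's criterion, which chance alone does for about 1 group in 20. It was not the same sample throughout, being that labelled CD1 for Spdef, WT2 for Fosb, 1 for Gm44346 and 2 for Nupr1. The highest sample stood apart for Fosb at 56 normalised counts, Spdef at 690, Gm44346 at 498, Axin2 at 5951, Habp2 at 631, Pla2g2a at 769, Stc2 at 525, Nupr1 at 539, Mki67 at 11723 and Lfng at 408. The lowest stood apart for Bambi at 44. Untreated samples entered none of the tests of PAM against indirect CAP.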

How the results depend on the processing

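The number of strict genes at day 2, 74, depended on the processing. It was 3 after quantile normalization, 2 after median-of-ratios scaling, 25 with no filter and 1658 at the second threshold, and stayed within 1.5 times with a pseudocount of 10 (53) and with all 22 samples (72). With the replicate block it was 0 when only the samples compared were fitted. With no replicate block it was 0 on 18 samples and 0 on the samples compared, with 2606 and 1683 genes at an unadjusted p under 0.05. Leaving out 1 sample or 1 line gave 0 to 484, the highest without the PAM sample of line CD1. It was 0 without the indirect sample of line CD1 or WT2 or the PAM sample of line WT2, and 1 without either sample of line 2. The day 1 comparison (119) gave 0 in the same 3 fits of block and samples, 2668 at the second threshold, and 0 to 445 with 1 sample or line left out, 0 without line CD1 or WT2. The test between days (0) gave 2 at the second threshold and 0 to 29 with a sample or line left out, 29 without line 2. No setting changed the sign of the median of the S phase, G2/M, stem cell, Wnt, goblet, Paneth, ribosome biogenesis, ATF4 or enterocyte list. Of the 84 genes run through the alternatives, Nupr1, Areg, Clu, Sis, Fabp2 and Gins2 changed sign with a sample or line left out, within -0.17 to 0.75, -0.02 to 0.32, -0.73 to 0.10, -0.05 to 0.66, -0.23 to 0.76 and -0.04 to 0.02. Gins2 was 0.08 after quantile normalization and 0.10 after median-of-ratios scaling. Fitting 3 lines limits precision, and the cause of each change was not tested.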
